A study of Mus musculus with 2 samples.

Results

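The 9 genes described here encode transcription factors that pattern the dorsal telencephalon and its areas: the homeobox factors Emx1, Emx2, Lhx2 and Pax6, the orphan nuclear receptors Nr2f1 and Nr2f2, the zinc finger factor Sp8, and the DM-domain factors Dmrta1 and Dmrt3. They were chosen by symbol from the 21896 gene symbols for which both libraries have values, and all 9 were found. RNA came from cortices at E13.5 of which the VZ–SVZ, the ventricular and subventricular zones that hold the progenitors, had been dissected, and 1 library was sequenced per genotype. The control was Rcor2fl/fl, which carries both floxed Rcor2 alleles. The other library was Rcor2cko, in which the same floxed alleles were recombined by Cre driven from Nestin, a promoter active in neural progenitors throughout the nervous system and not in the cortex alone. Both came from crosses of Rcor2fl/+NesCre mice, and the labels give the strain of both as C57/BL6. Whether the control embryo carried Cre, and how many embryos each library holds, is not given in the sources used here.

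In the embryonic cortex, signalling centres at its edges set up graded expression of transcription factors in the progenitors of the ventricular zone. The cortical hem lies medially, the antihem lies laterally at the border with the subpallium, and a source of Fgf ligands lies rostrally. Emx2, Lhx2, Nr2f1 and the Dmrt factors are high caudally or medially, whereas Pax6 and Sp8 are high rostrally, and the balance between them positions the sensory and motor areas. Lhx2 also acts as a selector of cortical over hem fate, Pax6 keeps dorsal progenitors distinct from ventral ones, and Nr2f2 is best known from the caudal ganglionic eminence and the caudal cortex.

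The sequence just upstream of 4 of these genes is shown first, because these are 4 of the 5 genes that lay past 1.5-fold between the libraries, each with 1 start in the table used; the fifth, Sp8, has several. Each line gives the 250 bases before the annotated start, 5′ to 3′ on the strand of the gene, from RefSeq on GRCm38.p6. Capitals mark GGGCGG, the GC box bound by Sp-type zinc finger factors, on either strand. By exact match, the Emx2 window lies on mm9 at chr19:59532930-59533179 (plus strand), the Dmrt3 window at chr19:25684777-25685026 (plus strand), the Dmrta1 window at chr4:89354639-89354888 (plus strand) and the Nr2f2 window at chr7:77511633-77511882 (minus strand). Each ends directly before the outer start of the locus given with the expression values.
Emx2: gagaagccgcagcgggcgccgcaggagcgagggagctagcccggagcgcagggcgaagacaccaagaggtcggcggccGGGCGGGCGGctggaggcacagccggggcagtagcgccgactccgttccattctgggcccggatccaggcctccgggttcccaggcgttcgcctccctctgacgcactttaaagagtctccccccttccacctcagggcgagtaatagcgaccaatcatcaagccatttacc
Dmrt3: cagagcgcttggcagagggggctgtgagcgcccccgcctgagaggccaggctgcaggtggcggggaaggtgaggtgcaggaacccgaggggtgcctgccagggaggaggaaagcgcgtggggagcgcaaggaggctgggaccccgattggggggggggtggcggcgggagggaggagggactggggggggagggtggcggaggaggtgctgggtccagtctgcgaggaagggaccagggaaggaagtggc
Dmrta1: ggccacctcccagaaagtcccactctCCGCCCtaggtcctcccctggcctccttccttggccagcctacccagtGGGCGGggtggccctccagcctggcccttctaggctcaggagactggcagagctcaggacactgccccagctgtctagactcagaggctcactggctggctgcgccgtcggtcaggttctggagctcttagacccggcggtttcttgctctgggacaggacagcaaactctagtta
Nr2f2: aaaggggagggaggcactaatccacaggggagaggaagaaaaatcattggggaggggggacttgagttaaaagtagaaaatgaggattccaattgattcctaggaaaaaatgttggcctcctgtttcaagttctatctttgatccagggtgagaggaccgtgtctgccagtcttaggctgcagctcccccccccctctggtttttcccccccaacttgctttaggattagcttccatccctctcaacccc

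GC content was 67.2% upstream of Emx2, 72.4% upstream of Dmrt3, 63.6% upstream of Dmrta1 and 50.0% upstream of Nr2f2, against a median of 52.4% over all 32851 windows of this length in the RefSeq table. All 9 genes had a window there, 14 windows in all, since some genes have several starts. The GC box was in 6 of the 14 windows, belonging to Dmrta1, Emx1, Emx2, Lhx2, Nr2f1 and Sp8, and in 32.7% of all windows. The other motifs were searched on both strands, and overlapping matches of 1 motif were counted separately. The homeodomain core TAATTA was in 4.84% of all windows and among these genes upstream of Sp8 alone. The same held for the nuclear receptor core AGGTCA, with 14.0% of all windows, and for TATAAA, with 12.4%. The AG-rich GAGAGA, in 20.2% of all windows, was upstream of Nr2f1 and Sp8. The Gli site TGGGTGGTC, in 0.225% of all windows, matched none of the 14. These matches describe letters in these windows and are not binding sites.

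Levels are in FPKM, which divides the fragments of a gene by transcript length and by library size. Low values fell on whole-fragment steps, from which scaling totals of 18841070 fragments for Rcor2fl/fl and 25481460 for Rcor2cko were fitted. Fragment numbers could be recovered for single-transcript genes of 1000 nt or longer, and for these the log2 ratio has a 95% interval (exact, Clopper-Pearson). These intervals cover counting error only, and with 1 library per genotype no difference has a replicate check. Changes compare Rcor2cko with Rcor2fl/fl as the log2 of the ratio of (FPKM + 0.1), so that values below 0 are lower in Rcor2cko, and were called past 1.5-fold (0.585 on the log2 scale). Rcor2 itself was at 90.6 and 55.7 FPKM (log2 change -0.70), in a sum over all exons that includes those outside the deletion. The libraries also differed in Xist, at 177 FPKM in Rcor2fl/fl and 0.109 FPKM in Rcor2cko, in the Y-linked Eif2s3y, listed at 0 and at 19.8 FPKM, and in the choroid plexus gene Ttr, listed at 0 and at 57.8 FPKM. The sex of the embryos and the genotype therefore cannot be told apart in this pair.

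The 9 factors did not move as a group. Emx2 and Dmrt3 were more than 1.5-fold lower in Rcor2cko, Nr2f2, Dmrta1 and Sp8 were more than 1.5-fold higher, and the other 4 genes stayed within 1.5-fold. A gene was counted as tested where either library reached 1 FPKM, and of the 11777 such genes 1.76% were lower and 3.79% higher by this measure. Dmrta1 reached 1 FPKM in Rcor2cko alone and could therefore only have been called higher. The log2 changes of the 9 genes had a median of -0.14 and ranged from -0.69 to 0.87, beside a median of -0.03 over all genes tested. The SD was 0.63 across the 9 genes and 0.45 across all genes tested. The summed level of the 9 genes was 327 FPKM in Rcor2fl/fl and 285 FPKM in Rcor2cko. As in any bulk sample, fewer cells of a type and less RNA per cell cannot be told apart in these values.

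**Figure D1:**
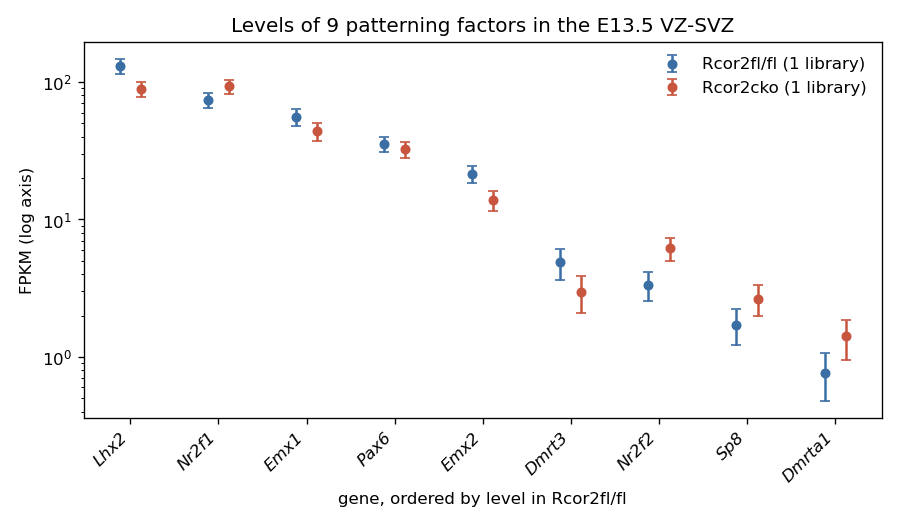
FPKM of the 9 genes (log axis) in the Rcor2fl/fl and the Rcor2cko library, with the deposited 95% FPKM intervals as bars. The Rcor2fl/fl bar of Nr2f2 was combined from the intervals of 2 transcripts. Lhx2, at 130.0 FPKM, led in Rcor2fl/fl, whereas Nr2f1, at 92.9 FPKM, was the highest in Rcor2cko, and Nr2f2 passed Dmrt3.

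The 2 Emx genes, homeobox factors of the dorsal progenitors, both had lower values in Rcor2cko, to different degrees. Emx2, which promotes caudal and medial cortical identity, was at 21.5 FPKM in Rcor2fl/fl and 13.9 FPKM in Rcor2cko (974 and 850 fragments). The log2 change of -0.62 had an exact interval of -0.77 to -0.50, and the deposited FPKM intervals did not overlap (18.4 to 24.6 and 11.6 to 16.2). Where both libraries reached 5 FPKM (8299 genes), 32 genes had a larger fall. Of these genes 0.506% were more than 1.5-fold lower and 0.735% more than 1.5-fold higher. Of the 5 factors among them, Emx2 was the only 1 past 1.5-fold. Emx1 was at 55.6 and 43.9 FPKM from 1025 and 1087 fragments, which is -0.34 on the log2 scale (exact interval -0.48 to -0.23). The deposited intervals of Emx1 overlapped. The FPKM of Emx1 was 2.58 times that of Emx2 in Rcor2fl/fl and 3.15 times in Rcor2cko. This ratio of ratios, which does not depend on how the libraries are scaled, was 1.22 on fragments (95% exact conditional interval 1.07 to 1.38).

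Emx2os, a non-coding RNA transcribed from the opposite strand, had a lower value in Rcor2cko as well, short of 1.5-fold. Its locus on mm9 runs from 59499594 to 59533125 on chromosome 19. That is inside the Emx2 window printed above and 55 nt before the start of Emx2, so that the 2 genes face away from each other and their listed loci do not overlap. Emx2os was at 1.38 FPKM in Rcor2fl/fl and 0.903 FPKM in Rcor2cko (126 and 111 fragments) and changed by -0.57 on the log2 scale, where the exact interval ended at -0.24 on the side nearest 0. The ratio of Emx2 to Emx2os fragments was 0.991 times as high in Rcor2cko as in Rcor2fl/fl (95% interval 0.749 to 1.31).

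Lhx2, the LIM-homeobox selector of cortical identity, was the most abundant of the 9 genes in the control and lost the most FPKM. It was at 130.0 FPKM in Rcor2fl/fl and 88.5 FPKM in Rcor2cko, from 5123 and 4702 fragments. The log2 change of -0.55 (exact interval -0.62 to -0.50) lies just short of 1.5-fold, with the control 1.47 times as high, and the deposited intervals were apart (114 to 146 and 77.7 to 99.3 FPKM). Lhx2 made up 39.8% of the summed FPKM of the 9 genes in Rcor2fl/fl and 31.1% in Rcor2cko. Of its relatives with at least 1 FPKM, Lhx5, a factor of the hem region and of Cajal-Retzius cells, was at 1.63 and 0.790 FPKM (log2 change -0.96). Lhx9 was at 4.92 and 3.31 FPKM (log2 change -0.56). Lhx6, which marks interneurons from the medial ganglionic eminence, was at 10.4 and 10.7 FPKM (log2 change 0.03).

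Pax6, the paired-type homeobox factor of dorsal radial glia, differed least of the 9. It was at 35.5 FPKM in Rcor2fl/fl and 32.3 FPKM in Rcor2cko from 1575 and 1932 fragments. On the log2 scale this is -0.14 (exact interval -0.24 to -0.04), and the deposited intervals overlapped. Among all genes tested, 3150 had a larger fall. The ratio of Pax6 to Emx2 in FPKM was 1.65 in Rcor2fl/fl and 2.32 in Rcor2cko, a rise of 1.41 times on fragments (95% interval 1.25 to 1.58). The antisense RNA Pax6os1 ends 6115 nt before the Pax6 locus given with the expression values. The longer Pax6 locus of GENCODE vM1 shares 1435 nt with Pax6os1 and 5841 nt with Elp4, both on the opposite strand. Pax6os1 was at 0.418 and 0.901 FPKM. Its 10 and 29 fragments gave an exact interval of the log2 ratio from 0.02 to 2.30.

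Nr2f1 and Nr2f2, the COUP-TF nuclear receptors, both had higher values in Rcor2cko, and Nr2f2 passed 1.5-fold. Nr2f1, which promotes caudal sensory area identity, was at 73.6 FPKM in Rcor2fl/fl and 92.9 FPKM in Rcor2cko (3099 and 5278 fragments). The change was 0.34 on the log2 scale (exact interval 0.27 to 0.40), and the deposited intervals, which reached 82.6 FPKM in Rcor2fl/fl and began at 81.5 FPKM in Rcor2cko, just overlapped. Nr2f2 was at 3.33 and 6.18 FPKM (log2 change 0.87), the largest rise among the 9, and its deposited intervals were apart (2.53 to 4.13 and 4.99 to 7.38). Of all genes tested, 210 had a larger rise than Nr2f2. The Rcor2fl/fl values list 2 transcripts of Nr2f2, of 4216 and 4164 nt. They held 87.0% and 13.0% of its FPKM, whereas the Rcor2cko library has 1 value for the gene. The lengths are close enough to place the gene at 252 fragments in Rcor2fl/fl and 624 to 633 in Rcor2cko, with a log2 ratio between 0.66 and 1.11. Nr2f6, a more distant member of the same family, was at 5.69 and 4.98 FPKM (log2 change -0.19). In FPKM, Nr2f1 was 22.1 times as high as Nr2f2 in Rcor2fl/fl, and this ratio was lower in Rcor2cko by a log2 difference of -0.56.

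Lhx2 and Nr2f1 exchanged places at the top of the order, although their deposited intervals overlapped in Rcor2cko. This pair was not among the planned ratios. Lhx2 was 1.77 times as high as Nr2f1 in FPKM in Rcor2fl/fl and 0.952 times as high in Rcor2cko. On fragments the ratio was 0.539 times that of the control (95% interval 0.508 to 0.572). The annotation gives each of them a gene on the opposite strand that overlaps the locus given with the expression values, Gm13584 for Lhx2 and A830082K12Rik for Nr2f1. Neither has a value here, and whether counting used the strand is not given in the sources used here, so that fragments of these genes cannot be told apart from those of their partners where they overlap.

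Sp8, a zinc finger factor induced by Fgf signalling in the rostral cortex and also expressed in the dorsal lateral ganglionic eminence, was at 1.72 FPKM in Rcor2fl/fl and 2.65 FPKM in Rcor2cko (139 and 289 fragments). This is 0.59 on the log2 scale (exact interval 0.32 to 0.92). At 1.51-fold Sp8 lay just past the 1.5-fold limit, which Lhx2 at 1.47-fold just missed, and its deposited intervals overlapped. Its log2 change was 0.52 with quantile normalization and 0.42 with a pseudocount of 1 FPKM, both below 1.5-fold. Sp9, the closest relative and a factor of the ganglionic eminences, was at 2.07 and 5.50 FPKM (log2 change 1.37). The FPKM of Emx2 was 12.5 times that of Sp8 in Rcor2fl/fl and 5.25 times in Rcor2cko.

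Dmrt3 and Dmrta1, DM-domain factors of the dorsomedial pallium, lay on opposite sides. Dmrt3 was at 4.88 FPKM in Rcor2fl/fl and 2.99 FPKM in Rcor2cko from 202 and 167 fragments, which is -0.69 on the log2 scale (exact interval -1.01 to -0.41). Dmrta1 was at 0.766 and 1.41 FPKM from 56 and 139 fragments, which is 0.80 on the log2 scale (exact interval 0.42 to 1.35). The level of 3 fragments, taken as the detection floor, is 0.0410 FPKM in Rcor2fl/fl and 0.0304 FPKM in Rcor2cko for Dmrta1. The deposited intervals overlapped for both genes. The FPKM of Dmrt3 was 6.37 times that of Dmrta1 in Rcor2fl/fl and 2.12 times in Rcor2cko. On fragments the ratio was 0.334 times that of the control (95% interval 0.225 to 0.49). Dmrta2, which acts with Dmrt3 in medial patterning, was at 14.3 and 10.6 FPKM (log2 change -0.43). Dmrtb1 was at 0.464 and 1.11 FPKM (log2 change 1.10) from 14 and 45 fragments.

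**Figure D2:**
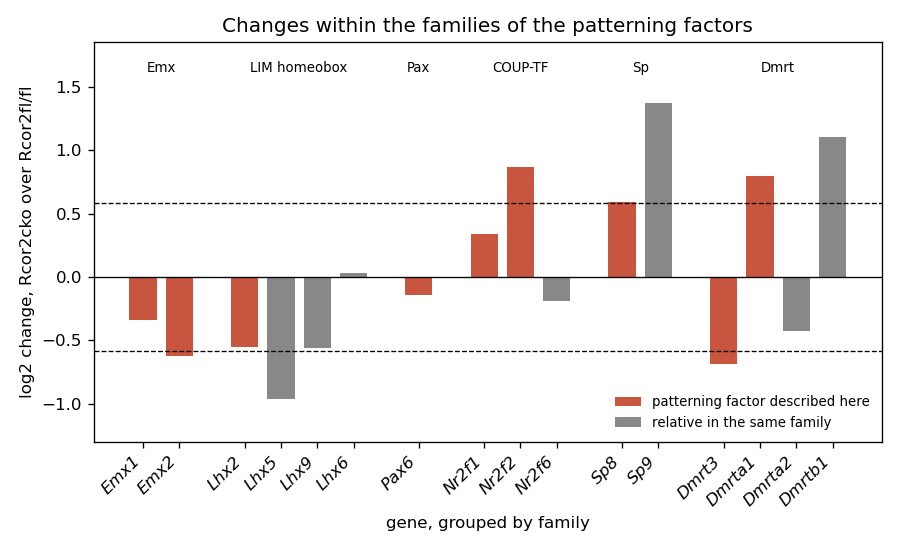
Log2 change of (FPKM + 0.1), Rcor2cko over Rcor2fl/fl, as bars from 0 for the 9 genes and for their tested relatives, grouped by family, with dashed lines at 1.5-fold. The Dmrt family spans -0.69 (Dmrt3) to 1.10 (Dmrtb1), while both Emx genes lie below 0 and both tested Sp genes above it. Dmrta1 and Dmrtb1 reached 1 FPKM in Rcor2cko alone and Lhx5 in Rcor2fl/fl alone, which fixed the side on which these could be called. Sp5, at 0.474 and 0 FPKM, reached it in neither and is not drawn.

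The exact interval of the log2 ratio left out 0 for each of the 9 genes, Nr2f2 by the range given above. It also did so for 37.7% of the 8460 tested genes with recovered fragments, so many other genes meet this measure. These intervals use the fitted totals without further scaling, and that of Pax6 ended nearest 0, at -0.04. Its change of -0.14 was -0.10 with median scaling and -0.09 with quantile normalization, for which no exact interval was computed. The stricter comparison of the deposited FPKM intervals separated 3 of the 9 genes, Emx2, Lhx2 and Nr2f2, and 3.47% of all genes tested. Within Rcor2fl/fl, the deposited intervals of neighbours in the order of levels overlapped only for Dmrt3 and Nr2f2. Within Rcor2cko they overlapped for Nr2f1 and Lhx2 and for Dmrt3 and Sp8. The highest of the 9 was 169.6 times the lowest in Rcor2fl/fl and 66.0 times in Rcor2cko.

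**Figure D3:**
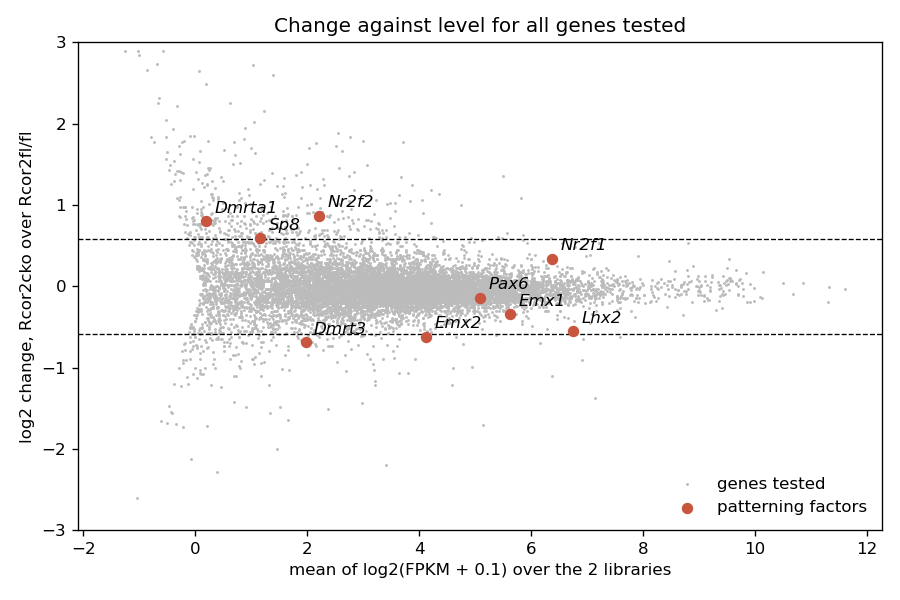
Log2 change of (FPKM + 0.1) against the mean of log2(FPKM + 0.1) over both libraries, for the 11777 genes tested (grey) and the 9 patterning factors (red), with dashed lines at 1.5-fold; 31 genes lie beyond the y axis. Lhx2 (-0.55), Emx2 (-0.62) and Nr2f1 (0.34) lie at levels where the grey points are narrow, whereas Dmrta1 (0.80) lies where they are wide.

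Ordered by the gradients known for these factors, the 6 caudally or medially high genes (Emx1, Emx2, Lhx2, Nr2f1, Dmrta1 and Dmrt3) had a median log2 change of -0.45. Nr2f2 was placed in neither group, and with it among the caudally high genes the median of 7 was -0.34, with 3 above 0. Emx1, Emx2, Lhx2 and Dmrt3 were below 0, and Nr2f1 and Dmrta1 above it. The 2 rostrally high genes differed from each other, with -0.14 for Pax6 and 0.59 for Sp8.

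Genes of the signalling centres that flank the cortex were read next, beginning on the medial side. Of 11 genes of the cortical hem, 2 reached 1 FPKM in both libraries. Rspo3, an enhancer of Wnt signalling, was more than 1.5-fold lower in Rcor2cko, at 11.8 and 6.26 FPKM, and Wnt5a was at 2.86 and 2.07 FPKM (-0.45). Of all 11331 genes that reached 1 FPKM in both libraries, 1.13% were lower and 2.31% higher. A further 2 hem genes reached 1 FPKM in Rcor2fl/fl alone, so that they could only have been called lower, and their values are given as a description. Wnt8b, a Wnt ligand of the hem and medial pallium, was at 1.35 FPKM in Rcor2fl/fl and 0.0371 FPKM in Rcor2cko. It had 81 and 3 fragments, which gives a log2 ratio between -7.50 and -3.59. Rspo1, of the same family as Rspo3, was at 1.10 and 0.0961 FPKM, from 34 and 4 fragments (interval -5.48 to -2.04). Summed over all 11 genes, the level was 21.0 FPKM in Rcor2fl/fl and 10.3 FPKM in Rcor2cko. Among the caudally or medially high factors, Emx1, Emx2, Lhx2 and Dmrt3 also had lower values, whereas Nr2f1 and Dmrta1 had higher ones, and the part of hem tissue in these differences was not tested.

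Of 12 genes of rostral Fgf signalling, 6 reached 1 FPKM in both libraries, and none of the 6 was past 1.5-fold. Etv4, an ETS factor and readout of Fgf signalling, was at 1.51 and 0.662 FPKM (-1.08), and as it reached 1 FPKM in Rcor2fl/fl alone it could only have been called lower. Dusp6, a feedback inhibitor, was at 7.75 and 5.49 FPKM (-0.49), whereas Etv1 (0.49) and Spry2 (0.44) had values above 0. Fgf8 was listed at 0 in both libraries. At the antihem, Tgfa, an EGF-family ligand, was at 1.01 and 3.52 FPKM (log2 change 1.70) from 77 and 361 fragments. It was the only 1 of 4 tested genes there past 1.5-fold, beside 3.79% of all genes tested that were higher and 1.76% lower. Sfrp2, a secreted Wnt antagonist, changed by 0.34, Nrg1 by -0.30 and Nrg3 by -0.05, and the median was 0.15.

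Of all 11777 genes tested, 1.76% were more than 1.5-fold lower and 3.79% higher, and the counts of tested genes below stand beside these shares. Among 16 tested factors of pallial patterning other than the 9, 1 (6.25%) was more than 1.5-fold higher and none lower, with a median of -0.11. The 1 was Pbx3, a TALE homeobox factor, at 3.09 and 7.48 FPKM (1.25, from 128 and 418 fragments). Lhx9 (-0.56) and Fezf2 (-0.49) had the lowest values. Of 12 tested cofactors, Zfpm2, which binds COUP-TF and GATA factors, was the only 1 past 1.5-fold. It was at 8.46 and 4.65 FPKM from 762 and 565 fragments, which is -0.85 on the log2 scale (exact interval -1.03 to -0.71), opposite in direction to Nr2f1 and Nr2f2. Lmo3 and Ldb2, of the LIM-only and LIM-binding proteins, changed by 0.51 and 0.40, and the median of the cofactors was -0.12. Of 17 relatives in the families of the 9 genes, 3 reached 1 FPKM in both libraries, of which Sp9 was higher and none lower. Of all genes so measured, 2.31% were higher and 1.13% lower. Dmrtb1 reached it in Rcor2cko alone and Lhx5 in Rcor2fl/fl alone, which fixed the direction of any call for these. Of 9 tested genes with graded expression across areas, 1 was higher and none lower, with a median of 0.21. That gene was Cdh4, a classical cadherin, at 11.4 and 23.8 FPKM (1.06). Epha3 changed by 0.31, Crym by -0.25 and Cdh8 by -0.20.

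**Figure D4:**
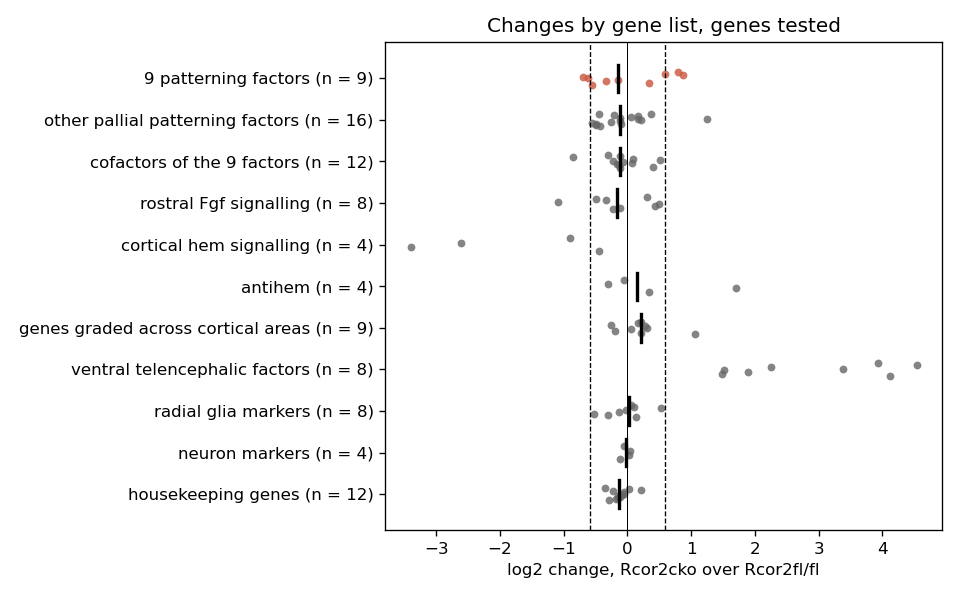
Log2 change of (FPKM + 0.1), Rcor2cko over Rcor2fl/fl, of each tested gene by list, 1 point per gene, with the median as a black line and dashed lines at 1.5-fold. The 9 patterning factors spread from -0.69 to 0.87 around a median of -0.14, beside -0.13 for the housekeeping genes. No median is drawn for the hem and ventral genes, since 2 of the 4 hem genes reached 1 FPKM in Rcor2fl/fl alone and 5 of the 8 ventral genes in Rcor2cko alone, which fixed the side on which these could be called.

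Ventral telencephalic factors, several of which the study itself chose from these libraries, had higher values in Rcor2cko. Of the 10 genes, 3 reached 1 FPKM in both libraries, and all 3, Dlx1 (4.87 and 13.9 FPKM), Dlx2 (2.96 and 11.2 FPKM) and Dlx5 (2.25 and 6.60 FPKM), were more than 1.5-fold higher, beside 2.31% of all genes so measured. A further 5 (Gsx2, Dlx6, Olig2, Isl1 and Six3) reached 1 FPKM in Rcor2cko alone and could only have been called higher. Nkx2-1, at 0.128 and 0.190 FPKM, and Gsx1, listed at 0 and at 0.0250 FPKM, reached it in neither. The summed level over the 10 genes was 10.5 FPKM in Rcor2fl/fl and 40.7 FPKM in Rcor2cko. Isl1, a factor of striatal precursors, was listed at 0 and at 2.23 FPKM, and Gsx2, which specifies the lateral ganglionic eminence, at 0 and at 1.64 FPKM. Nr2f2, Sp8 and Sp9, which are also expressed in the ganglionic eminences, were higher beside them, and the part of these cells in the higher Nr2f2 and Sp8 values was not tested.

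Markers of cell types and of other tissues were read last. Emx1, Lhx2 and Fezf2 were above 40 FPKM in both libraries, a limit just under the 43.9 FPKM of Emx1 in Rcor2cko. Emx1 and Lhx2 are among the factors under study, and Fezf2 is from the list of other pallial factors. Their levels are therefore no independent check of the cortical origin of the tissue. None of 8 radial glia markers was past 1.5-fold, with a median of 0.02 and a range from -0.53 for Hes1 to 0.53 for Fabp7. Their summed level was 855 and 1006 FPKM, of which Fabp7 alone held 372 and 539 FPKM. Of the 8, 4 had changes above 0. None of the 4 tested neuron markers was past 1.5-fold either, with a median of -0.01 and 1292 and 1241 FPKM in sum. Of 4 intermediate progenitor markers, 1 was lower, beside 1.76% of all genes tested, with a median of -0.15. None of 7 diencephalic markers reached 1 FPKM in either library. Their summed level was 0.737 and 0.645 FPKM, with 4 of the 7 listed at 0 in Rcor2fl/fl and 2 in Rcor2cko. None of 6 meningeal markers reached 1 FPKM either (1.94 and 2.23 FPKM in sum). The 4 tested erythroid markers had a median of -0.14 and the 5 endothelial markers 0.12, none past 1.5-fold. Of 5 microglial markers 2 were higher, beside 3.79% of all genes tested, with a median of 0.30. The 6 choroid plexus markers summed to 0.684 and 60.6 FPKM, and 2 of the 6 were listed at 0 in Rcor2fl/fl. Nearly all of the Rcor2cko sum was from Ttr, and the other 5 reached 1 FPKM in neither library. Of these, Clic6 had 4 and 74 fragments, Otx2 7 and 26, Folr1 5 and 20, and Kcnj13 3 and 15. The exact intervals of these 4 genes lay above 0, and Kl had 0 and 1 fragments. The 12 housekeeping genes had a median of -0.13, from -0.35 for Polr2a and -0.29 for Actb to 0.22 for Gusb, and none was past 1.5-fold. The changes of Pax6 (-0.14) and Emx1 (-0.34) lay within this range, Emx1 at its lower end with Polr2a alone below it. Of all genes tested, 730 had a larger fall than Emx1.

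By their values in the 2 libraries alone, the genes nearest to the 9 on the log2(FPKM + 0.1) scale were Plagl1 for Emx1 (Euclidean distance 0.032), Mtss1l for Emx2 (0.057), Nfib for Lhx2 (0.092), Odz4 for Pax6 (0.007) and Pgrmc1 for Nr2f1 (0.124). They were Rftn2 for Nr2f2 (0.064), Ltbr for Sp8 (0.010), Caln1 for Dmrta1 (0.031) and Fosl2 for Dmrt3 (0.026). With 2 libraries this likeness means only a similar level and a similar difference.

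On mm9, the listed loci were as follows, counted from 1. Emx1 lies on chromosome 6 from 85137925 to 85154457 and Emx2 on chromosome 19 from 59533180 to 59539847, both on the plus strand. Lhx2 lies on chromosome 2 from 38206828 to 38225248 and Pax6 on the same chromosome from 105516602 to 105537226, both on the plus strand. Nr2f1 lies on chromosome 13 from 78328236 to 78338243 and Nr2f2 on chromosome 7 from 77496836 to 77511632, both on the minus strand. Sp8 lies on chromosome 12 from 120084802 to 120091051, Dmrta1 on chromosome 4 from 89354889 to 89361457 and Dmrt3 on chromosome 19 from 25685027 to 25698411, all on the plus strand. These are whole genes, and their FPKM sum over all exons.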

How the data were processed

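Total RNA of 1 Rcor2fl/fl and 1 Rcor2cko sample was made into libraries with a stranded mRNA kit. The authors mapped reads to mm9 and deposited FPKM values with 95% FPKM intervals, per RefSeq transcript with its length for Rcor2fl/fl (27641 rows) and per gene for Rcor2cko (21896 rows). The submitters' processing notes give TopHat 1.3.3 and Cufflinks 1.2.0, whereas the study's methods name another version of TopHat, and which of these made the deposited values is not given in the sources used here.

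Transcript rows were summed per gene, and interval widths were combined as the root of the summed squares, which treats the errors of transcripts as independent. Intervals combined in this way are counted among the deposited intervals here. Genes reaching 1 FPKM in either library were compared by log2 ratios of (FPKM + 0.1), without further scaling. There is no test of genotypes and no p-value. Fragments were recovered for single-transcript genes by fitting the length offset (194.1 and 200.9 nt) and the step of 1 fragment, and 99.3% of 4019 and 99.4% of 3961 values of up to 100 fragments came out within 0.1 of a whole number. These steps were tested on simulated data. Ratios between 2 genes were compared by conditional odds ratios of fragments, chosen after the values were seen. Only the FPKM ratios of Emx1 to Emx2, Nr2f1 to Nr2f2 and Dmrt3 to Dmrta1 were planned. The members and lists were chosen with earlier results of these data known. Named genes are the 9 factors, Rcor2, the nearest gene of each factor and, per gene list, up to 2 with the largest changes in each direction. Some genes that this rule names are not reported here. Xist, Eif2s3y, Ttr, Fgf8, Elp4, Rspo3, Wnt5a, Dlx1, Dlx2, Dlx5, Dlx6, Olig2, Six3, Nkx2-1, Gsx1, Lhx6, Dmrta2, Emx2os and Pax6os1 were added after values were seen. Clic6, Otx2, Folr1, Kcnj13, Kl and Sp5, which reached 1 FPKM in neither library, are also named outside this rule. Gene strand and overlaps are from GENCODE vM1 on NCBIM37 (mm9), and upstream sequences from RefSeq on GRCm38.p6. Python 3.11.15, numpy 2.4.6, pandas 2.3.3, scipy 1.17.1 and matplotlib 3.10.9 were used. The 12 alternatives tried were other pseudocounts, scalings, filters and fold limits, the highest row per gene, and 1.5-fold together with deposited intervals that do not overlap. Counts of listed genes reaching 1 FPKM in both libraries, and the placing of Nr2f2, were added after seeing the data.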

Additional observations from a re-analysis of the deposited data

How the results depend on the processing

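No paired analysis was possible because each genotype has 1 library. Of the alternatives, 7 can change the log2 value of a factor, and the filters, the 2-fold limit and the interval requirement bear on counts alone. In all 63 combinations of factor and these 7, the sign was kept. Each log2 change also stayed within an interval derived from the deposited FPKM intervals. Under these 7 alternatives Dmrt3 ranged from -0.71 to -0.56, Dmrta1 from 0.45 to 0.87 and Sp8 from 0.42 to 0.63, each on both sides of 1.5-fold. The median of the 9 ranged from -0.14 to -0.09. The number of factors called was 1 lower and 1 higher with a pseudocount of 1 FPKM, 0 and 0 at 2-fold, and 1 and 1 where 1.5-fold and deposited intervals that do not overlap were both required. Over all genes tested, 100 were lower and 243 higher with a pseudocount of 1 FPKM, 672 and 1287 when no filter was applied, 69 and 139 where either library had to reach 5 FPKM, 128 and 262 where both had to reach 1 FPKM, 62 and 162 at 2-fold, and 81 and 220 with both required. With the highest row per gene, which lowers the Rcor2fl/fl library alone since its rows are transcripts, 1214 genes were higher. The same setting moved the median of the other pallial factors to 0.21, of the cofactors to 0.32 and of the relatives to 1.06, and the Rcor2fl/fl ratio of Nr2f1 to Nr2f2 to 25.4. The hem median of -1.76 rests on 4 tested genes, of which 2 reached 1 FPKM in Rcor2fl/fl alone and could only have been called lower. It was -0.71 when no filter was applied and -0.68 where both libraries had to reach 1 FPKM, which leaves 2 genes. The median of the neuron markers, at -0.01, was 0.02 with median and upper-quartile scaling and 0.01 with total scaling and quantile normalization. The cause of the other moves was not tested. Depth limits Dmrta1 most among the 9, with 56 fragments in Rcor2fl/fl.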
